A study of Mus musculus with 2 samples.

Results

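Conventional and mature dendritic cells were picked out of droplet-based single-cell RNA profiles of the leukocytes of mouse mammary tumours, and 71 of 12351 cells that passed quality limits met the rule. A cell was counted as dendritic when it had at least 1 UMI (a unique molecular identifier, which counts 1 captured transcript) of Flt3, at least 200 UMIs per 10000 of the MHC class II transcripts H2-Aa, H2-Ab1, H2-Eb1 and Cd74 together, under 20 per 10000 of the macrophage complement genes C1qa, C1qb and C1qc, no Cd79a or Cd3e, and under 50 per 10000 of the neutrophil genes S100a8 and S100a9. Cells with at least 1 UMI of Xcr1 or Clec9a were called cDC1, cells with at least 2 UMIs of Ccr7 and Fscn1 together were called mature, and the rest were called cDC2-like. Because these measured values chose the cells, the levels of these genes are given as a description throughout. There was 1 library for each of 2 tumour lines, PyMT-M and PyMT-N, so no difference between lines could be tested. The PyMT-M library gave 50 dendritic cells, of which 19 were cDC1, 25 cDC2-like, 4 mature and 2 met both the cDC1 and the mature rule. The PyMT-N library gave 21, of which 8 were cDC1 and 13 cDC2-like, and none met the mature rule.

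Both lines are polyoma middle T antigen mammary tumour cells that had been placed into the mammary gland of mice; host strain, sex, age and any treatment are not given in the sources used here. Tumours were taken after 4 weeks and dissociated, live cells carrying the pan-leukocyte protein CD45 were collected by flow sorting, and libraries were made with 10x Genomics 5′ chemistry. Each library stands for 1 line, and the labels do not say how many tumours or mice went into it. The title of the series concerns interferon-stimulated neutrophils and the response to immunotherapy.

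Dendritic cells take up antigen, cut it into peptides and show these to T cells on MHC molecules. The cDC1 type, which depends on the transcription factors IRF8 and BATF3, takes up material of dead cells through CLEC9A, is drawn to XCL1-producing lymphocytes through XCR1 and presents peptides to CD8 T cells on MHC class I. The cDC2 type presents chiefly to CD4 T cells on MHC class II, and on maturation either type can turn on CCR7, the receptor that guides the cells along lymphatic vessels to the lymph node, together with the actin-bundling protein fascin, encoded by Fscn1.

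The deposited matrices held 7476 barcodes and 43977988 UMIs for PyMT-M and 5020 barcodes and 14907736 UMIs for PyMT-N, and 60 barcode sequences occurred in both. No barcode sequence was shared between the dendritic cells of the libraries, although 2 PyMT-M dendritic cells carried a barcode that was also used in PyMT-N. Kept cells had a median depth of 5112 (PyMT-M) and 1961.5 (PyMT-N) UMIs, whereas dendritic cells were closer in depth, with a median of 7815 UMIs (range 2604 to 18290) against 6325 (range 1688 to 14374). The summed depth was 437119 UMIs over the PyMT-M and 152610 over the PyMT-N dendritic cells, so that the limits on PyMT-N values were wider. All intervals below are exact 95% intervals and cover counting error only, not the spread between tumours.

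The labels call the cell type "tumor", whereas the cells described here are leukocytes sorted by CD45. Zbtb46, a transcription factor of conventional dendritic cells that the rule did not use, had a UMI in 52.6% of PyMT-M cDC1 cells and 48% of cDC2-like cells, against 0.169% of T cells (median depths 9199, 7617 and 4173 UMIs). In PyMT-N the shares were 37.5% of cDC1 and 15.4% of cDC2-like cells, against 0.617% of T cells (median depths 6582.5, 5823 and 3195.5 UMIs). The markers of other cell types were low but not all absent. Of 12 macrophage markers, 11 were detected in PyMT-M dendritic cells with a summed level of 686 CPM (counts scaled to the same total in each library) and 7 in PyMT-N with 446 CPM, and Mertk was at 0 in both. Of 11 monocyte markers, 10 and 9 were detected, at 2295 and 1265 CPM. A single PyMT-M cDC1 cell, described below, held 423 of the 1003 UMIs of the monocyte list and 73 of the 300 of the macrophage list, and without it the PyMT-M sums were 1367 and 535 CPM. Of 12 plasmacytoid dendritic markers, 8 and 5 were detected, at 373 and 170 CPM, and no dendritic cell had 2 UMIs of Siglech and Ccr9, although 6 and 4 Flt3-positive cells outside the rule did. T cell markers were all at 0 in PyMT-N, with Cd8a alone detected in PyMT-M (6 UMIs), and S100a8 was at 0 in both libraries. Neutrophil markers summed to 117 and 190 CPM, with Il1r2, which cDC2-like cells carried, at 45 of 46 and 25 of 27 of the UMIs of that list in those cells, and B cell markers to 144 and 91.7 CPM with Cd79a, Ms4a1 and Pax5 at 0. Epithelial markers summed to 213 and 105 CPM with Krt8 and Krt19 at 0, natural killer cell markers to 4.58 and 19.7 CPM, endothelial and stromal markers to 2.29 and 19.7 CPM, and mast cell and basophil markers to 0. The part that these other transcripts play in the results was not tested.

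The rule had few cells near most of its edges. Flt3 was the clearest exception, since 24 of 50 PyMT-M and 16 of 21 PyMT-N members had exactly 1 Flt3 UMI. Of the Flt3-positive kept cells, 88 (PyMT-M) and 33 (PyMT-N), 19 and 10 missed the class II minimum and 22 and 1 missed the C1q limit. For PyMT-M and PyMT-N in turn, the lowest class II level inside the rule was 204 and 283 per 10000 and the highest outside 193 and 196. The highest C1q level inside was 16.5 and 0.696 per 10000, and the lowest outside was 42.3 and 129. Of the cells that met the Xcr1 or Clec9a rule, 5 from PyMT-M and 2 from PyMT-N rested on exactly 1 UMI. The PyMT-M cells among them include a cell that also met the mature rule. Every cell of the mature rule had between 23 and 69 UMIs of Ccr7 and Fscn1, and no dendritic cell had 1 or 2.

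**Figure D1:**
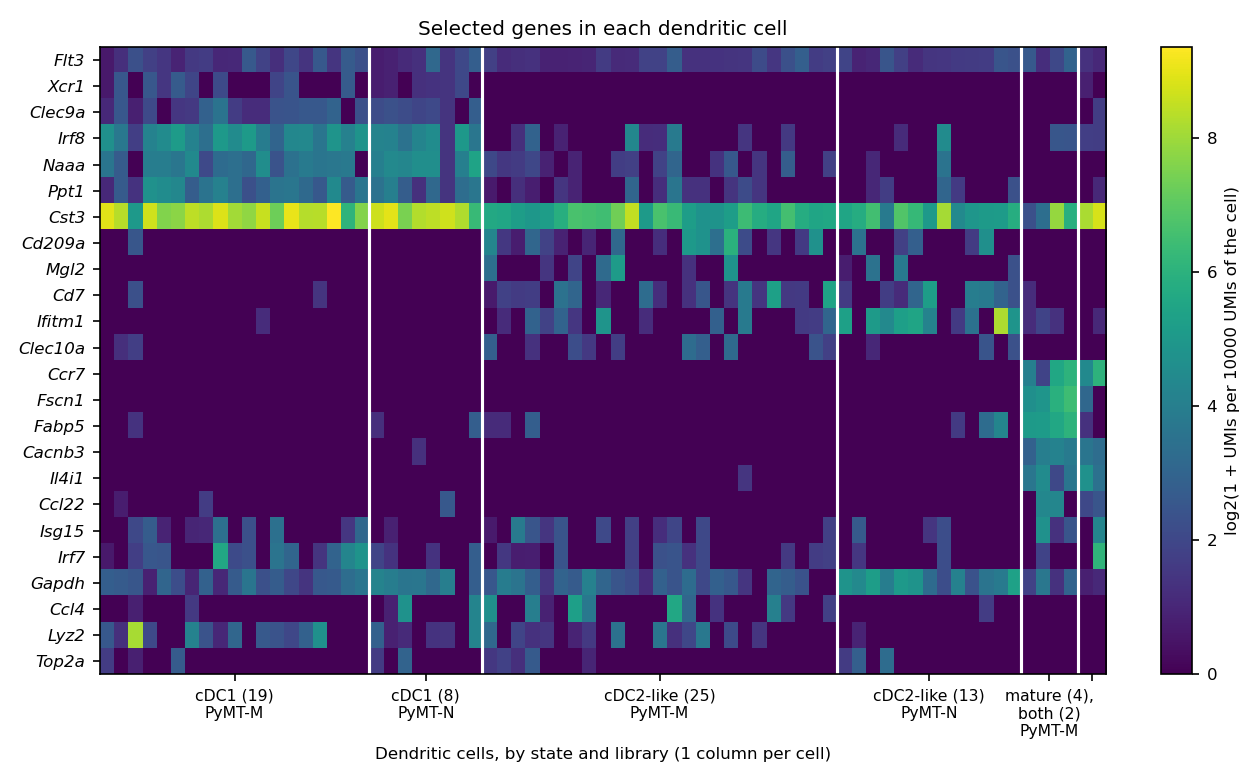
Levels of 24 genes (rows) in each of the 71 dendritic cells (columns), grouped by state and library; the colour gives log2 of 1 plus the UMIs per 10000 UMIs of the cell. Xcr1, Clec9a, Ccr7 and Fscn1 set the states; Irf8, Naaa, Ppt1 and Cst3 were high in most cDC1 cells, Cd209a, Mgl2 and Cd7 were spread over part of the cDC2-like cells, and Cacnb3 and Il4i1 were present in all 6 cells of the mature rule.

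Genes that the rule did not use separated most cDC1 from most cDC2-like cells. The 16 other genes of the cDC1 list, which includes Irf8, Batf3, Naaa and Ppt1, were summed in each cell. In PyMT-M the sum ran from 7.0 to 112 per 10000 UMIs in cDC1 cells (median 73.0) and from 2.13 to 72.3 in cDC2-like cells (median 11.5). In PyMT-N it ran from 21.6 to 101 in cDC1 cells (median 81.0) and from 1.77 to 66.8 in cDC2-like cells (median 7.90). The ranges overlapped, but only through a few cells. With a limit of 40 per 10000, which was set after the values were seen and lies in a gap that no cell filled between 32 and 48, 18 of 19 and 7 of 8 cDC1 cells lay above and 23 of 25 and 12 of 13 cDC2-like cells below. All 6 cells of the mature rule, including the 2 that also had Xcr1 or Clec9a, lay below.

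Cells on the far side of that gap differed from their state in more than the summed list. The 3 cDC2-like cells above it had 16, 9 and 12 UMIs of Irf8 and 2, 5 and 6 of Naaa, with no Cd209a and no Mgl2. The PyMT-N cDC1 cell below it had 1 UMI each of Xcr1, Clec9a, Irf8 and Naaa, 3 of Ccl22 and 9 of Marcksl1 in 6008 UMIs, with the mature list at 38.3 per 10000 and no Ccr7 or Fscn1. The PyMT-M cDC1 cell below it held 358 of the 430 Lyz2 UMIs of its state, with 11 UMIs of Ly6c2 and 7 of Ccr2, markers of monocytes. The cell had 1 UMI of Clec9a, none of Xcr1, 3 of Irf8 and 42 of Cst3, against a median of 16.5 Irf8 and 257 Cst3 UMIs in the other PyMT-M cDC1 cells, and no other PyMT-M dendritic cell had more than 17 Lyz2 UMIs. Leaving this cell out of the comparisons was an alternative chosen after seeing the data, and its values stand beside the genes named below that it moved by over 1.5 times.

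**Figure D2:**
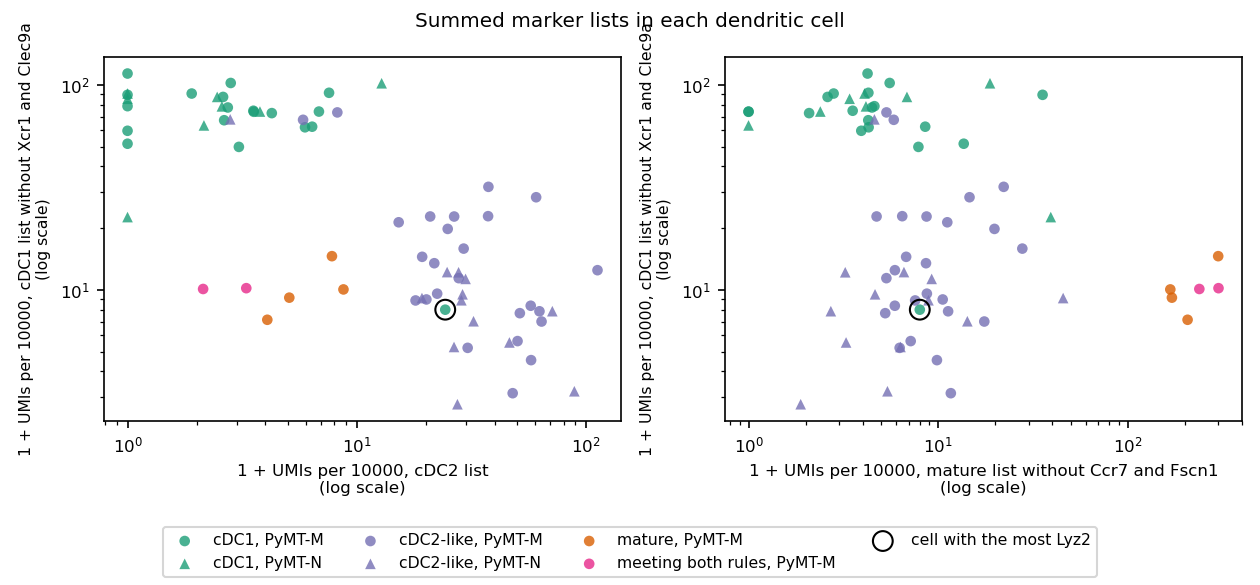
Summed marker lists in each dendritic cell, as 1 plus UMIs per 10000 on log axes: the cDC1 list without Xcr1 and Clec9a against the cDC2 list (left) and against the mature list without Ccr7 and Fscn1 (right). Circles are PyMT-M and triangles PyMT-N cells, colours are the states of the rule, and the ring marks the cell with the most Lyz2; the cells of the mature rule lie at 167 or more on the mature list, and 18 of 19 PyMT-M cDC1 cells lie above 40 on the cDC1 list.

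The dendritic share of kept cells was 0.680% (95% interval 0.505 to 0.895) for PyMT-M, against 0.421% (0.260 to 0.642) for PyMT-N. The order turned with the denominator. Among kept cells under the S100a8 and S100a9 limit, which leaves out the neutrophil-type cells, dendritic cells made up 0.684% (0.508 to 0.901) of 7308 PyMT-M cells, against 1.03% (0.639 to 1.57) of 2037 for PyMT-N. Per 100 C1q macrophages there were 0.931 dendritic cells in PyMT-M and 3.37 in PyMT-N. The shares by either denominator had overlapping intervals. The cDC1 share of dendritic cells was 38% (24.7 to 52.8) for PyMT-M, against 38.1% (18.1 to 61.6) for PyMT-N, and the cDC2-like share was 50% (35.5 to 64.5) and 61.9% (38.4 to 81.9). Cells of the mature rule, with those that met both rules, made up 6 of 50, or 12% (4.53 to 24.3), in PyMT-M and 0 of 21 in PyMT-N, where a count of 0 allows a share of up to 14.3% by a limit of 3 cells, or 16.1% by the exact interval. The intervals overlap, so these counts did not settle whether the mature share differed between the lines.

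The absence of mature PyMT-N cells also depended on Flt3. Without a call for Flt3, 4 further PyMT-M and 2 further PyMT-N cells met the other limits and had at least 2 UMIs of Ccr7 and Fscn1. The 2 PyMT-N cells together had 16 UMIs of Ccr7, 7 of Ccl22 and 4 of Il4i1 in 15618 UMIs, but none of Fscn1. When Flt3 was not asked of cells with the state markers, an alternative chosen after seeing the data, the dendritic share was 0.924% (PyMT-M) against 0.541% (PyMT-N), and the mature share of dendritic cells was 14.7% and 7.41%.

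**Figure D3:**
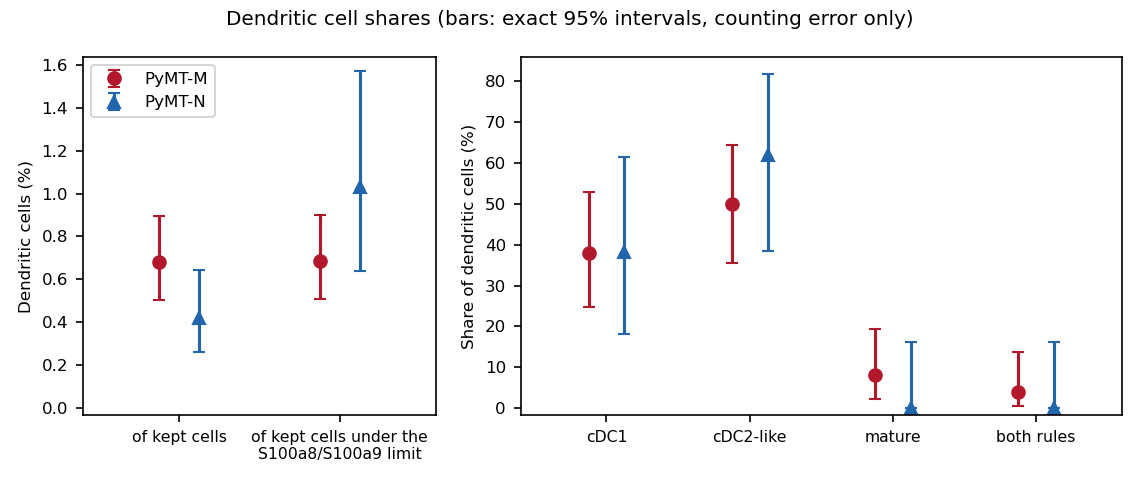
Dendritic cells as a percentage of kept cells and of kept cells under the S100a8 and S100a9 limit (left), and each state as a percentage of dendritic cells (right), with exact 95% intervals that cover counting error only. Intervals of the libraries overlap in every pair shown; mature cells were 0 of 21 in PyMT-N.

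Irf8, Naaa, Ppt1, Cst3, Cd81 and Psap stood higher in the cDC1 than in the cDC2-like state of both libraries. Irf8, the transcription factor that cDC1 cells need, stood at 1899 CPM in cDC1 against 190 in cDC2-like cells in PyMT-M, with a log2 ratio of 3.31 (2.85 to 3.82). The PyMT-N levels were 1578 against 140 CPM and the log2 ratio 3.49 (2.65 to 4.46). All log2 ratios here are of CPM of summed UMIs with 1 CPM added, while their intervals are exact intervals of the plain ratio. Naaa, a lysosomal lipid amidase, stood at 1036 against 172 CPM (PyMT-M) and 1796 against 75.2 CPM (PyMT-N). Ppt1, a lysosomal enzyme that strips palmitate from proteins, stood at 1036 against 130 CPM and 856 against 96.7 CPM. Cst3, which encodes the protease inhibitor cystatin C, was the most abundant of these genes, at 31365 against 7198 CPM (PyMT-M) and 35778 against 6599 CPM (PyMT-N). Cd81, a tetraspanin of the cell surface, had log2 ratios of 3.70 (2.31 to 5.71) and 5.10 (3.23 to 8.26), and Psap, the precursor of the saposins, 1.93 and 1.82. The rule genes Clec9a and Xcr1 had 55 and 36 UMIs (PyMT-M) and 19 and 6 UMIs (PyMT-N) in cDC1 cells, and none in cDC2-like cells by construction.

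Among 3173 genes with at least 20 UMIs over both states and libraries, 3.21% were at least 2-fold higher in cDC1 in both libraries and 5.96% were at least 2-fold higher in cDC2-like cells in both. Of the 16 measured genes of the cDC1 list, 13 were at least 2-fold higher in cDC1 in PyMT-M, where 6.93% of all genes were, and 14 in PyMT-N, where 18.8% were. The list has 2 rule genes in it, which cDC1 cells alone brought to the minimum count, so nothing is read from its counts. The median log2 ratio of the list was 2.79 in PyMT-M and, with genes at 0 set to their bound, 1.99 in PyMT-N. Batf3, partner of IRF8 in cDC1 cells, was near equal in PyMT-M (log2 ratio 0.23, interval -0.35 to 0.80) and at 1.11 (0.00 to 2.26) in PyMT-N, and Itgae, which encodes the integrin CD103, was at 0.41 (-0.39 to 1.23) and -0.09 (-1.84 to 1.51).

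Of the 12 measured genes of the cDC2 list, 12 were at least 2-fold higher in cDC2-like cells in each library, where 13.1% of all genes were in PyMT-M and 19.2% in PyMT-N. Nothing is read from this count, since cDC2-like cells alone brought members such as Mgl2 to the minimum count. In PyMT-N, 173 of the 609 genes higher in cDC2-like cells had no UMI in cDC1 cells. Mgl2, a lectin that binds galactose-type sugars, had 76 (PyMT-M) and 23 (PyMT-N) UMIs in cDC2-like cells and none in cDC1 cells, which is at least 20.4-fold and at least 4.91-fold higher against a floor of 3 UMIs. Cd209a, a lectin of the DC-SIGN family, stood at 719 CPM in cDC2-like against 34.5 CPM in cDC1 cells of PyMT-M, while the PyMT-N cells had 31 UMIs against 0, at least 6.61-fold higher. All 6 Cd209a UMIs of the PyMT-M cDC1 cells, as well as 5 of 6 of Cd7, 9 of 9 of Tmem176b and the 1 of Siglece, were in the cell with monocyte markers. Il1r2, a decoy receptor for interleukin 1, had 45 and 25 UMIs in cDC2-like cells and none in cDC1 cells. Cd7, Il2rg, Siglece, Cd72, Tmem176b and Epcam were also at least 2-fold higher in cDC2-like cells of both libraries. Cd209a was not in every cell: 17 of 25 cDC2-like cells (68%, 46.5 to 85.1) from PyMT-M, against 5 of 13 (38.5%, 13.9 to 68.4) from PyMT-N, had a Cd209a UMI, against 0.169% and 0.617% of T cells.

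Of 13 measured genes for MHC class II and peptide loading, none was at least 2-fold higher in cDC1, while 4 (PyMT-M) and 5 (PyMT-N) were at least 2-fold higher in cDC2-like cells, where 13.1% and 19.2% of all genes were. The 4 rule genes of class II were within 2-fold in both libraries, with Cd74 at -0.47 and -0.02. H2-DMb2, a beta chain of the peptide editor H2-DM, had a log2 ratio of cDC1 over cDC2-like of -2.44 (-3.28 to -1.71) in PyMT-M and -4.63 (-10.05 to -2.16) in PyMT-N. The alternative beta chain H2-DMb1 was at 0.30 and 0.41. Ctss, the cathepsin that trims the invariant chain, was at -1.22 (-1.59 to -0.87) and -1.87 (-2.56 to -1.24). Of 20 measured genes for MHC class I and cross-presentation, 2 were at least 2-fold higher and 1 lower in cDC1 of PyMT-M, and 8 higher and 3 lower in PyMT-N, beside 6.93% and 18.8% of all genes higher. Psmb9, an immunoproteasome subunit, was higher in cDC1 at 1.19 (0.75 to 1.65) and 1.69 (1.01 to 2.42), and Tap2, which carries peptides into the endoplasmic reticulum, was at 1.16 and 1.11. Il1b, the gene of interleukin 1 beta, was lower in cDC1 at -3.32 (-4.00 to -2.73) and -1.21 (-2.05 to -0.44).

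Lyz2 was also higher in cDC1 than in cDC2-like cells, at 2474 against 260 CPM (PyMT-M) and 269 against 10.7 CPM (PyMT-N). In PyMT-M, 83.3% of these UMIs came from the cell with monocyte markers, and without it the cDC1 level was 447 CPM and the log2 ratio 0.78 in place of 3.25.

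The mature cells, all from PyMT-M, had a mature signature far above that of the other dendritic cells. Outside Ccr7 and Fscn1, the mature list summed to 167 to 299 per 10000 UMIs (median 188) in the 4 mature cells and to 238 and 300 in the 2 cells that met both rules, while no other dendritic cell exceeded 44.7. The 6 cells had 12, 2, 30, 29, 27 and 57 UMIs of Ccr7 and 19, 21, 39, 38, 10 and 0 of Fscn1. Cacnb3, a calcium channel subunit, had 5, 11, 11, 6, 15 and 8 UMIs in the same cells, Il4i1, a secreted amino acid oxidase, 9, 16, 2, 5, 33 and 9, and Relb, a subunit of the NF-kappaB pathway, 2, 6, 7, 6, 17 and 12. These 3 genes were thus present in all 6 cells, whereas the chemokines varied from cell to cell. Ccl22, a ligand of CCR4, was present in 4 of the 6 cells with 4 to 14 UMIs, Ccl5 in 5 with 6 to 107 UMIs, and Ccl17 in 2 with 3 and 30 UMIs. The cells that met both rules had 3 and 2 UMIs of Irf8 and none of Naaa, and their cDC1 list sums, 9.19 and 9.10 per 10000, lay within the range of the other mature cells (6.15 to 13.6).

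Against the PyMT-M cDC2-like cells, 10.4% of 1654 genes were at least 2-fold higher and 38.8% at least 2-fold lower in the 4 mature cells. The mature pool held 26010 UMIs against 215465, and 248 of the 641 lower genes had no UMI in it. Of the 14 measured genes of the mature list, 13 were at least 2-fold higher, and Cd40 was at 0.65 (-0.76 to 1.83). Nothing is read from this count, since the list includes the rule genes Ccr7 and Fscn1 and 4 of its members had no UMI in cDC2-like cells, so that mature cells alone brought them to the minimum count. Of 15 measured genes for the cytoskeleton and migration, a list that shares Fscn1, Cacnb3, Marcksl1 and Tmem123 among others with the mature list, 10 were at least 2-fold higher and none lower. Outside both lists, Fabp5, a fatty acid carrier, stood at 4268 against 55.7 CPM, a log2 ratio of 6.23 (5.40 to 7.26), although the cells that met both rules had little of it (1.53 and 0 UMIs per 10000). Clic4, an intracellular chloride channel protein, and Rgs1, which dampens G protein signalling of chemokine receptors, were higher at log2 ratios of 2.56 (1.76 to 3.35) and 3.54 (2.91 to 4.21).

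Several MHC class II genes stood lower in the mature cells. Of 11 measured genes of that list, which holds the 4 class II genes of the rule, 7 were at least 2-fold lower and none higher, beside 38.8% of all genes lower. With the cells that met both rules, the list summed to 555 per 10000 UMIs, against 577 in cDC1 and 777 in cDC2-like cells of PyMT-M. Among the members, H2-Ab1 stood at 1769 against 8233 CPM (log2 ratio -2.22, -2.67 to -1.80) and Ctss at 423 against 1183 CPM. H2-Aa differed less, at 8804 against 12192 CPM (-0.47, -0.67 to -0.27). Of 14 measured genes of the type I interferon response, 11 were at least 2-fold lower, beside 38.8% of all genes, among them Ifitm3 at 115 against 2288 CPM. Nothing is read from this count, since 248 of the 641 lower genes of this comparison had no UMI in the small mature pool. Isg15, a ubiquitin-like interferon product, was higher at 846 against 204 CPM, and the per-cell values show where it lay: 25.8 UMIs per 10000 in the second mature cell against 0, 1.54 and 4.53 in the others. One of the cells that met both rules had 18.2 per 10000 of Isg15 and 69.4 of Irf7, and the other had none of either. Over the whole list, 3 mature cells had 7.75 to 13.6 per 10000 and the fourth 83.0, and the cells that met both rules had 13.0 and 199, so that the mature cells did not share a level of interferon-response transcripts.

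Between the lines, the largest differences over all dendritic cells were in genes of the mature state, which only PyMT-M dendritic cells held. Of 3443 genes, 10.0% favoured PyMT-M and 4.12% PyMT-N by at least 2-fold, and 21 of the 22 measured genes of the mature list favoured PyMT-M that far. The list includes Ccr7 and Fscn1, 8 of its genes were at 0 in 1 library, and no PyMT-N cell met the mature rule, so nothing is read from that count. Ccr7 had 157 (PyMT-M) and 0 (PyMT-N) UMIs, at least 18.3-fold higher, Fscn1 127 and 0, at least 14.8-fold, and Il4i1 75 and 0, at least 8.73-fold. Once the 6 cells of the mature rule were left out, an alternative chosen after seeing the data, the median log2 ratio of the list moved from -2.70 to -0.01. The lines were therefore compared within cDC2-like and within cDC1 cells.

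Within each state, 6 of 14 measured genes of the type I interferon list stood at least 2-fold lower in PyMT-N, beside 9.92% (cDC1) and 11.7% (cDC2-like) of all genes. The promoters of several genes of this list carry the paired GAAA sequence to which interferon-activated factors bind, and the windows of 3 list genes are printed. By summed UMIs, Isg15 and Bst2 were lower in PyMT-N in both states, Bst2 by less than 2-fold. Ifi211 was higher in PyMT-N in cDC1 cells. Each line gives 250 bases before the transcription start, 5′ to 3′ on the strand of the gene, from RefSeq on GRCm38.p6, and capitals mark GAAANNGAAA. The windows are chr4:156200819-156201068 (minus strand) for Isg15, chr8:71537473-71537722 (minus strand) for Bst2 and chr1:173913047-173913296 (minus strand) for Ifi211.
Isg15: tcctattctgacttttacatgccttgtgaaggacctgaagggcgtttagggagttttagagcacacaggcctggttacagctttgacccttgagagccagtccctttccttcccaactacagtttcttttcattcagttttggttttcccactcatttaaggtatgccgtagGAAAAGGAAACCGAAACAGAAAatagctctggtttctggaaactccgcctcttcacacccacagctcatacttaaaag
Bst2: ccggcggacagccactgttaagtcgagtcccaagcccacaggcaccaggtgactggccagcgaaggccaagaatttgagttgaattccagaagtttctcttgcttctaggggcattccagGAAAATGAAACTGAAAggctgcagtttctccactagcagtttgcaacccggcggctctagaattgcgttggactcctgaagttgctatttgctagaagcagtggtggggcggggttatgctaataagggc
Ifi211: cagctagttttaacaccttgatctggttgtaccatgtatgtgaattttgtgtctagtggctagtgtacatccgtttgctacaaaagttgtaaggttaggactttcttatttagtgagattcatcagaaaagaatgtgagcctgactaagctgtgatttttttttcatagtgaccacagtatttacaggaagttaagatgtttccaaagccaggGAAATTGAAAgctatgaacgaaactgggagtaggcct
The motif was searched on both strands, and overlapping matches were counted apart: Isg15 held 3, starting 78, 72 and 66 bases before the start, Bst2 2, and Ifi211 1. Of all 32851 windows of this length, 2.98% held it. Of the 26 measured genes of the type I interferon list, 19 had a window and 11 of these (57.9%) held the motif, against 1 of 14 with a window on the mature list and 1 of 12 on the cDC1 list. The 1 gene of the cDC1 list was Ifi205, which is on both lists and is also among the 11. A match describes these letters only.

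In cDC1 cells, Isg15 had 36 UMIs over 10 of 19 PyMT-M cells and 1 UMI over 8 PyMT-N cells, a log2 ratio of PyMT-N over PyMT-M of -3.55 (-8.97 to -1.05). Irf7, a transcription factor that interferon induces, had 100 UMIs over 13 cells against 8 over 4, at -2.09 (-3.35 to -1.07). A single cell held 44% of these UMIs in PyMT-M, and a single cell 50% in PyMT-N. Ifitm3, a membrane protein that blocks virus entry, had 161 against 9 UMIs, at -2.61 (-3.77 to -1.66), and without the cell with monocyte markers, which held 74 of them, it was at -1.83. Of 1472 genes compared in cDC1 cells, 9.92% favoured PyMT-M and 7.0% PyMT-N by at least 2-fold, while of 14 measured genes of the interferon list 6 favoured PyMT-M and 2 favoured PyMT-N, with a list median of -0.74 against -0.00 for all genes. The 2 in the other direction were Ifi211, a DNA-sensor family member, with 13 and 13 UMIs, at 1.53 (0.32 to 2.77), and Phf11b at 1.30 (0.53 to 2.08).

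In cDC2-like cells Isg15 and Irf7 also stood lower in PyMT-N, and the differences between the states were not tested. Isg15 stood at 204 against 96.7 CPM, at -1.07 (-2.30 to -0.02), with 44 UMIs over 11 of 25 cells against 9 over 3 of 13. Irf7 had 24 against 4 UMIs, at -1.35 (-3.36 to 0.17), an interval that includes no difference. Ifi205, an interferon-inducible DNA-binding protein, had 34 against 3 UMIs, at -2.26 (-4.64 to -0.62), whereas in cDC1 cells it was at 0.25 (-0.45 to 0.92). Ifi205 is also on the cDC1 list. Without Xcr1 and Clec9a, that list was above 40 per 10000 in 2 PyMT-M and 1 PyMT-N cDC2-like cells. The part of these cells in the Ifi205 counts was not tested. Bst2, which encodes tetherin, was at -0.99 (-1.98 to -0.11) in cDC2-like and -0.97 (-2.27 to 0.12) in cDC1 cells, where the mean of the CPM of each cell gave 0.08. Of 2008 genes compared in cDC2-like cells, 11.7% favoured PyMT-M and 4.13% PyMT-N by at least 2-fold, and of 14 measured interferon genes 6 favoured PyMT-M and 1, Ly6a, favoured PyMT-N, with a list median of -0.96 against -0.14 for all genes. Median-ratio scaling moved the split of all genes in this state from 234 favouring PyMT-M and 83 favouring PyMT-N to 184 and 117. Cells of the same state overlapped in the summed interferon list, which ran from 19.8 to 172 per 10000 in PyMT-M cDC1 cells (median 61.6) and 9.99 to 88.9 in PyMT-N (median 41.0), and from 29.0 to 169 (median 70.2) and 22.4 to 153 (median 41.2) in cDC2-like cells.

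Ifitm1, a relative of Ifitm3 named here after its values were seen, went the other way. The ranked genes had to pass a limit against levels in other cell types, and Ifitm1 was not among them. Its levels in those cell types are not given here, and the part of their transcripts in its counts was not tested. In cDC2-like cells Ifitm1 stood at 316 CPM (PyMT-M) and 3493 CPM (PyMT-N), with 68 UMIs over 12 of 25 cells against 325 over 10 of 13. The 8 PyMT-N cDC1 cells had none. The PyMT-M cDC1 cells had 1 UMI of Ifitm1, so in each library it was higher in cDC2-like than in cDC1 cells. In PyMT-M some cells of the mature rule also had Ifitm1. Without the top cell of each library the log2 ratio between lines in cDC2-like cells was 3.42, against 3.46 with all cells.

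Socs3, a feedback inhibitor of cytokine signalling, was lower in PyMT-N in both states, with 216 against 36 UMIs in cDC2-like cells, at -1.37 (-1.93 to -0.86), and 73 against 5 in cDC1 cells, at -2.31 (-3.99 to -1.03), or -1.90 (-3.60 to -0.60) without the cell with monocyte markers. In cDC1 cells Socs3 met the count and interval limits of the ranked genes but was not among them. Those genes also had to pass the limit against levels in other cell types. In cDC2-like cells Cd209a was at -1.11 (-1.72 to -0.55) and Clec10a, another galactose-binding lectin, at -2.01 (-3.98 to -0.56), while Mgl2 was at -0.51 (-1.25 to 0.18). Cd40, the receptor for the T cell signal CD40L, had 37 against 2 UMIs in cDC2-like cells, but 21 of the 37 came from 1 cell. Itgb2, the beta chain of the leukocyte integrins, was at -1.97 (-3.24 to -0.92), and Plbd1 and Crip1 at -1.23 and -1.30.

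Higher in PyMT-N in both states were Gapdh, Snrpg and Fcgr2b. Gapdh, a glycolytic enzyme, stood at 631 against 2096 CPM in cDC2-like cells, at 1.73 (1.41 to 2.06), and at 483 against 1276 CPM in cDC1 cells, at 1.40 (0.93 to 1.87), and it was detected in 20 of the 21 PyMT-N dendritic cells. Gapdh met the count and interval limits of the ranked genes in both states but was not among them. Those genes also had to pass a limit against levels in other cell types, and the part of such transcripts in the Gapdh counts was not tested. The rest of the glycolysis list did not follow in cDC2-like cells, where 1 of 11 measured genes, Gapdh itself, was at least 2-fold higher and the list median was 0.05. Snrpg, a spliceosome protein, was at 1.71 (1.17 to 2.27) and 1.80 (1.07 to 2.56), and Usmg5, a subunit of the mitochondrial ATP synthase, at 1.23 and 1.24. Fcgr2b, the inhibitory Fc receptor for IgG, had 16 against 24 UMIs in cDC2-like and 20 against 24 in cDC1 cells, at 1.78 (0.82 to 2.81) and 1.80 (0.89 to 2.74), the latter 2.20 (1.20 to 3.28) without that cell. S100a4 was at 1.79 (1.16 to 2.45) and Rgs1 at 2.90 (2.36 to 3.49) in cDC2-like cells, and Pfkp, a phosphofructokinase, at 2.42 (1.45 to 3.49) and Cd81 at 1.61 (0.98 to 2.24) in cDC1 cells. Of 1330 genes measured in both states, 14 favoured PyMT-N and 25 favoured PyMT-M by at least 2-fold in both states, and 6 went at least 2-fold in opposite directions.

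**Figure D4:**
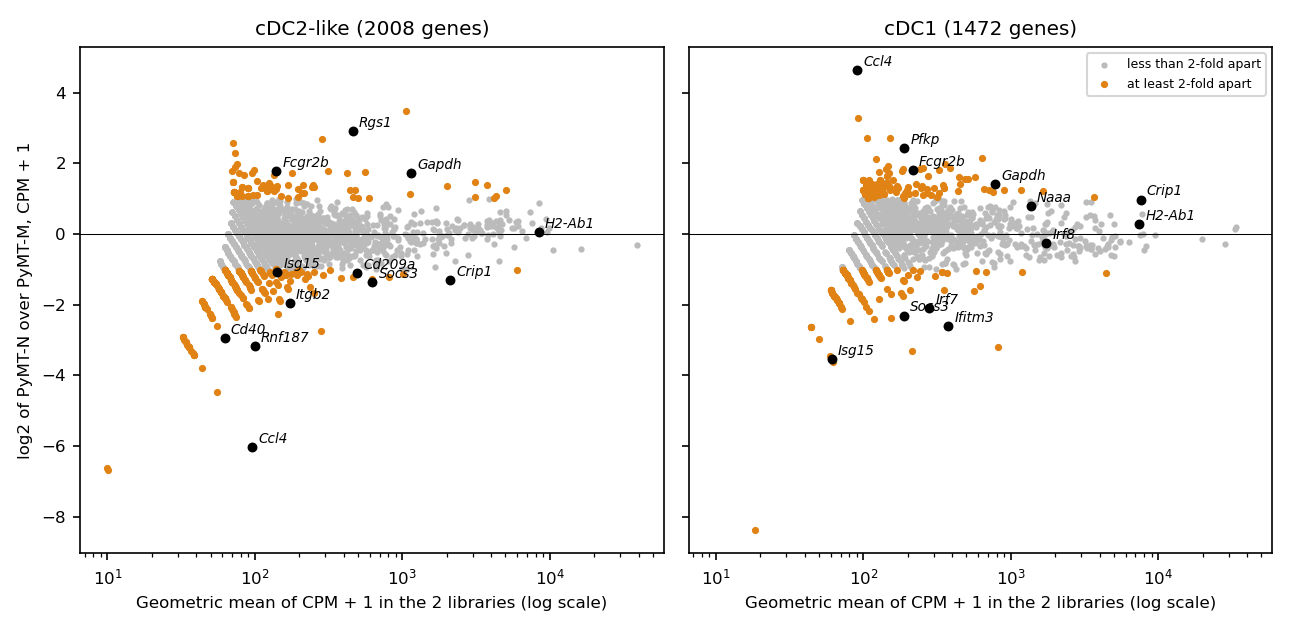
log2 ratio of PyMT-N over PyMT-M (vertical axis, CPM with 1 added) against the geometric mean of the levels in the libraries (log axis) for each compared gene in cDC2-like cells (left, 2008 genes) and cDC1 cells (right, 1472 genes); orange points are at least 2-fold apart and black points are named. Gapdh and Fcgr2b lie above 1 and Isg15 and Socs3 below -1 in both states, and Ccl4 lies on opposite sides.

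MHC class II levels, which the rule used, were close between lines: of 13 measured genes of the list over all dendritic cells, none was 2-fold apart, and the list median was 0.10. In cDC1 cells 3 of 11 measured genes of the list favoured PyMT-M by at least 2-fold and none PyMT-N, beside 9.92% of all genes, and the list median was -0.33, or -0.08 without the cell with monocyte markers. Ciita, the master regulator of class II transcription, had 32 against 3 UMIs in these cells, at -1.85 (-4.22 to -0.19), while H2-Ab1 was at 0.28 (0.12 to 0.43). Among genes of the cDC1 list in cDC1 cells, Irf8 was at -0.27 (-0.61 to 0.07), Batf3 at 0.01 (-0.85 to 0.81) and Clec9a at 0.01 (-0.82 to 0.79), and Naaa at 0.79 (0.44 to 1.15). Of 15 measured genes of that list, 3 favoured PyMT-M by at least 2-fold and none PyMT-N, with a list median of -0.27. They were Xcr1, with 36 against 6 UMIs, at -1.03 (-2.58 to 0.22), Tlr3, at -1.03 (-2.76 to 0.34), and Snx22, at -1.08 (-2.81 to 0.29), and each interval includes 0.

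Crip1, which encodes a small LIM-domain protein, had opposite signs in the states, a contrast singled out after its values were seen. It stood at 3286 against 1333 CPM in cDC2-like cells, at -1.30 (-1.59 to -1.02), and at 5426 against 10628 CPM in cDC1 cells, at 0.97 (0.82 to 1.12), and it was detected in every cDC1 cell of both lines. Without the top cell of each library the values were -1.38 and 1.41. The difference between the states was not tested.

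Several of these differences were also present in cells outside the dendritic compartment. Gapdh was higher in PyMT-N at 2.58 (2.55 to 2.62) in C1q macrophages, 2.08 in monocytes with Ly6c2 and Ccr2, and 1.78 in T cells, and Snrpg at 2.30, 1.61 and 1.66. Irf7 was lower in PyMT-N at -1.74, -0.89 and -2.0, Bst2 at -1.46, -0.95 and -1.29, and Socs3 at -2.19, -1.50 and -0.69. Isg15 was at -2.34 (-2.53 to -2.19) in C1q macrophages, below the value in cDC2-like cells, and at -0.73 and -0.63 in monocytes and T cells. Ifitm3 was at -0.32, -0.28 and 0.77 in these classes, against -0.93 in cDC2-like and -2.61 in cDC1 cells. Fcgr2b was at 0.44, 0.62 and 3.37 in macrophages, monocytes and T cells, against 1.78 in cDC2-like and 1.80 in cDC1 cells. None of these differences between classes was tested, since each class comes from the same pair of libraries.

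**Figure D5:**
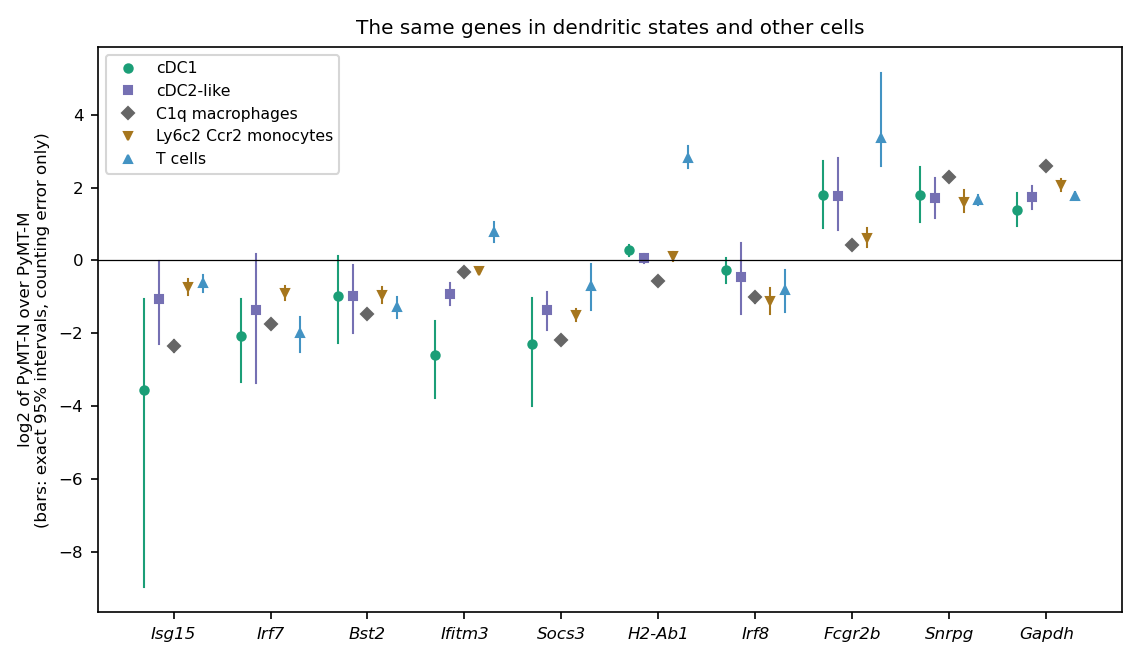
log2 ratio of PyMT-N over PyMT-M for 10 genes (horizontal axis) in cDC1 and cDC2-like dendritic cells, C1q macrophages, Ly6c2 Ccr2 monocytes and T cells; bars are exact 95% intervals that cover counting error only. Gapdh and Snrpg lie above 0 and, by summed UMIs, Irf7, Bst2 and Socs3 below 0 in all 5 classes, whereas Ifitm3 and H2-Ab1 do not keep a sign.

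Some dendritic cells in both lines were dividing. The cell-cycle list reached at least 100 per 10000 UMIs in 6 of 50 cells (12%, 4.53 to 24.3) from PyMT-M, against 5 of 21 (23.8%, 8.22 to 47.2) from PyMT-N, with no cell between 80 and 120, a limit chosen after the values were seen. The same numbers of cells had at least 2 UMIs of Mki67, Top2a and Birc5. The cycling cells were 2 of 19 cDC1 and 4 of 25 cDC2-like cells of PyMT-M, 2 of 8 and 3 of 13 of those of PyMT-N, and none of the 6 cells of the mature rule. The intervals of the lines overlap. Stmn1, which was higher in PyMT-N cDC1 cells at 1.87 (1.20 to 2.56), rested on these cells, since 77.3% of its PyMT-N UMIs came from 1 cell and without the cycling cells PyMT-N had no UMI of it (log2 value with 1 CPM added, -6.61).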

How the data were processed

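Leukocytes sorted from mouse mammary tumours were profiled in 2 droplet-based 5′ single-cell libraries, 1 per tumour line. The deposited matrices hold raw UMI counts per gene and barcode, made with Cell Ranger on mm10, and Seurat was also used, per the submitters' processing notes; the matrix files give software version 3.1.0, per the file headers. Tool versions beyond this are not given in the sources used here.

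Barcodes with under 200 genes or over 10% mitochondrial UMIs were dropped, which left 7357 of PyMT-M and 4994 of PyMT-N. Members, states and gene lists were chosen with earlier results of these data known. Cells that met both the cDC1 and the mature rule formed a group of their own. C1q macrophages (C1q genes at 20 or more per 10000 UMIs), monocytes (Ly6c2 and Ccr2, no Flt3) and T cells (Cd3e) served for comparison. Doublets were not removed; Scrublet (scanpy 1.11.5) marked 447 and 202 barcodes and served as an alternative.

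Cells are not replicates, so each group of cells was added up gene by gene and scaled to CPM, and genes with at least 20 UMIs over the groups compared were described by log2 ratios with a pseudocount of 1 CPM, at least 2-fold apart being a description and not a test. Intervals are exact at 95%: conditional binomial for ratios, Clopper-Pearson for shares. A level of 0 was compared through a floor of 3 UMIs per group. The comparison of mature cells between lines could not be made, since PyMT-N had none. Named genes were list members with at least 20 UMIs, and up to 10 genes per direction and comparison with the largest ratio among those with at least 50 UMIs. Between lines these also had at least 50 CPM, an interval beyond 1.5-fold and at least 0.5 of the level in neutrophil-type cells, macrophages, T and B cells of that library. List members did not have to meet these further limits. The ranked part skipped predicted genes, antigen receptor genes and those for haemoglobin, ribosomes or mitochondrial transcripts. The code was tested on simulated data. Alternatives changed the depth, scaling, pseudocount, minimum count, doublet treatment and limits of the rule. Promoter windows came from RefSeq (GRCm38.p6). Python 3.11.15, numpy 2.4.6, scipy 1.17.1, pandas 2.3.3 and matplotlib 3.10.9 were used.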

Additional observations from a re-analysis of the deposited data

Results flagged for a closer look

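Ccl4, which encodes a chemokine, had opposite signs in the dendritic states. In cDC2-like cells it stood at 770 CPM for PyMT-M against 10.7 CPM for PyMT-N, a log2 ratio of -6.04 (-11.48 to -3.67), with 166 UMIs over 11 of 25 cells against 1 UMI in 13 cells. In cDC1 cells it stood at 17.3 against 453 CPM, a log2 ratio of 4.64 (3.01 to 7.08), with 3 UMIs over 2 of 19 cells against 27 UMIs over 3 of 8 cells. Of the 27 UMIs, 23 came from 1 cell, and without the top cell of each library the cDC1 value was 3.48. With the states set by the cDC1 list at 40 or more per 10000, an alternative chosen after seeing the data, the cDC1 value was 1.20. In cDC2-like cells Ccl4 met the count and interval limits of the ranked genes but was not among them. Those genes also had to pass a limit against levels in other cell types. The levels of Ccl4 in those cell types are not given here, and the part of their transcripts in its counts was not tested. The difference between the lines was not tested, since each line has 1 library.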

How the results depend on the processing

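No paired analysis was possible because each line has 1 library, and no replicate could be left out. With Flt3 at a minimum of 2 UMIs the dendritic share was 0.353% for PyMT-M and 0.100% for PyMT-N, and with cells thinned to 2000 UMIs it was 0.362% for PyMT-M, where the states were 17.4% cDC1, 78.3% cDC2-like and 4.35% mature. Without a call for Flt3, an alternative added after seeing the data, the PyMT-M share was 0.924%. The number of genes at least 2-fold apart followed the minimum count, as a lower minimum admits more genes. With minimums of 10 and 50 UMIs it was 1160 and 121 over all dendritic cells (488 at 20 UMIs), 854 and 81 in cDC2-like cells (317), 705 and 61 in cDC1 cells (249), 538 and 105 for cDC1 against cDC2-like cells (291), and 1671 and 268 for mature against cDC2-like cells (813). The last was 523 without the cycling cells, an alternative added after seeing the data. Of the alternatives so added, leaving out the cells of the mature rule turned Cacnb3 to 2.92, Ccl22 to 1.25 and Ccl5 to 1.26 over all dendritic cells. These values rested on few UMIs: PyMT-M then had no UMI of Cacnb3 and PyMT-N had 1. In PyMT-N, Ccl22 rested on 3 UMIs of 1 cell and Ccl5 mainly on 17 UMIs of 1 cell. Leaving out the cycling cells turned Cdca3 to -1.96 and Top2a to -2.76 over all dendritic cells, and Hmgb2 to -0.28 and Stmn1 to -6.61 in cDC1 cells, where PyMT-N then had no UMI of it. Leaving out the top cell of each library turned Cd14 to -0.40 over all dendritic cells and to -0.70 in cDC2-like cells. Among the values of single genes and lists, 953 stayed within 0.5 on the log2 scale under the alternatives listed at the outset and 38 moved, and under the added ones 346 stayed, 73 moved and the 9 above, at least 2-fold apart at first, changed sign. Values under 2-fold changed sign in 16 and 11 further cases, among them Slfn2 in cDC1 cells (-0.51 to 0.19) and the medians of the class II list over all dendritic cells (0.10 to -0.04) and of the cell-cycle list in cDC1 cells (0.76 to -0.28). With 21 PyMT-N dendritic cells, genes below 20 UMIs could not be compared.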

Other observations

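Transcripts of the cDC1 rule were also found in C1q macrophages of 1 library. Xcr1 or Clec9a had a UMI in 760 of 5373 PyMT-M C1q macrophages, 14.1% (13.2 to 15.1), and in 0 of 624 PyMT-N C1q macrophages (exact upper limit 0.589%). The PyMT-M macrophages with such a UMI had a median of 5817.5 UMIs, against 4904 in those without and 4530 in PyMT-N. Their Flt3 level was 4.08 CPM (2.56 to 6.18) against 0.345 CPM (0.158 to 0.655) in those without. Naaa stood at 61.2 against 65.6 CPM, Irf8 at 337 against 287 CPM and C1qb at 11285 against 11195 CPM, so that these cells carried the complement genes at the level of other macrophages.

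Some cells met every limit but Flt3. With Xcr1 or Clec9a there were 14 such cells in PyMT-M, with Irf8 at 1058 CPM and Naaa at 755 CPM, and 4 in PyMT-N, with Irf8 at 850 CPM and Naaa at 1331 CPM. Genes of the cDC2 type were present as well, with Cd209a at 287, Cd7 at 205 and Mgl2 at 131 CPM in the PyMT-M and Cd7 at 924 CPM in the PyMT-N cells. The 4 PyMT-M cells with Ccr7 and Fscn1 but no Flt3 had 35 UMIs of Ccr7, 21 of Fscn1, 18 of Ccl22 and 12 of Il4i1.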
